A study of Mus musculus with 6 samples.

Results

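Rab GTPases are small membrane-bound switches that direct vesicle traffic. In the GTP-bound state each Rab recruits its own effectors to a given compartment. Guanine exchange factors (GEFs) switch Rabs on, GTPase-activating proteins (GAPs) switch them off, and the GDI proteins extract them from membranes after they have been prenylated. In osteoclasts, the multinucleated cells that resorb bone, Rab-directed delivery of acidic vesicles to the bone-facing membrane forms the ruffled border, and Rab7, Rab3d, Rab27a and Rab38 are known for roles in this cell. The members described here are the genes whose symbol begins with Rab and a digit, leaving out pseudogenes, antisense transcripts and genes named as interacting, activating or exchange proteins. This choice gave 58 of 26529 genes in the table and left out 14. One of the 58, Rab3il1, encodes an exchange factor and not a GTPase, so the family counts below cover 57 GTPases and Rab3il1 is described with the exchange factors.

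RNA was sequenced from bone marrow cells of wild-type C57BL/6 mice aged 8 weeks. Both groups were cultured with M-CSF at 20 ng/ml and RANKL, the cytokine that drives osteoclast formation, at 10 ng/ml. Osteoclast precursors (OCP, n = 3 libraries) were taken on day 3 and osteoclasts (OC, n = 3) on day 6. The submitters identified both by activity of TRAP, the acid phosphatase that Acp5 encodes, and describe OC as multinucleated. The labels do not say whether replicates are different mice or culture wells. Each p-value below therefore reflects library-to-library spread, which may be technical.

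Values are RPKM, reads assigned to a gene, scaled by its exon length and by library depth. The libraries held 33219178 to 42121216 reads. Correlations of log2(RPKM + 1) over tested genes were 0.994 to 0.995 within groups and 0.949 to 0.956 between them. The defining markers went against the order of the labels: all 10 osteoclast markers examined, among them Ctsk and Acp5, were detected in both groups but lower in OC (summed level 5100 to 5260 RPKM in OCP and 2730 to 2810 RPKM in OC). Over all 12301 tested genes 23.5% were called higher in OC and 32.1% lower (limma, adjusted p under 0.05), the shares to set beside these marker counts. Of 9 tested macrophage and monocyte markers 7 were higher in OC and 2 lower. Among the rises, Mrc1 and Cx3cr1 reached the 1 RPKM needed for testing only through the OC group. Both therefore had to differ to be counted. The markers of this list summed to 1260 to 1320 RPKM in OCP and 1300 to 1380 RPKM in OC. Immediate early and heat shock genes were higher in 9 of 12 cases and lower in 1, with sums of 956 to 982 RPKM in OCP and 1300 to 1350 RPKM in OC. Neutrophil markers rose in 4 of 4 tested cases (S100a8, S100a9, Ngp and Mmp8) and summed to 40.5 to 45.0 RPKM in OCP and 57.5 to 64.0 RPKM in OC, led by S100a9. The rest of that list was too low to be tested. Elane, Mpo, Camp and Retnlg overlapped between groups, Ltf was higher in OC without overlap, and Ly6g had no values. Pf4, the one platelet or erythroid marker tested, rose from 36.1 ± 0.567 to 89.2 ± 1.09 RPKM. Markers of mast cells summed to 0.951 to 1.32 RPKM in OCP and 0.288 to 0.63 RPKM in OC, and none was tested. Lymphocyte markers (1 tested, Trac, not called) summed to 1.64 to 2.22 and 1.08 to 1.96 RPKM, and stromal and endothelial markers (2 tested, 0 called, Kdr among them) to 6.64 to 6.92 and 6.32 to 6.99 RPKM. The part of these shifts in the results below was not tested. In such bulk samples, fewer cells of a type and less RNA per cell cannot be told apart. Whether the group labels were attached to the right libraries was not tested, and every direction given here rests on them.

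The gene with by far the largest difference in the family was Rab15, which encodes a Rab that slows traffic through early and recycling endosomes. It lies on the minus strand of chromosome 12 (76797960 to 76822908, GRCm38). The stretches before a pair of annotated starts of Rab15 are shown because the transcript was close to absent in one group and readily measured in the other. They come from the RefSeq promoter table (GRCm38.p6), which lists 4 starts for this gene, and run 5′ to 3′ on the minus strand. The first, chr12:76822554-76822774, precedes the most upstream of these RefSeq starts and is trimmed where it meets an annotated exon. It lies inside the gene span given above, whose 5′ end is further upstream, so it is not sequence from before the whole gene. The second, chr12:76818375-76818624, precedes 1 of the 3 starts further downstream and is shown because it held most of the matches. Capitals mark matches to the motifs searched.
Rab15 upstream start: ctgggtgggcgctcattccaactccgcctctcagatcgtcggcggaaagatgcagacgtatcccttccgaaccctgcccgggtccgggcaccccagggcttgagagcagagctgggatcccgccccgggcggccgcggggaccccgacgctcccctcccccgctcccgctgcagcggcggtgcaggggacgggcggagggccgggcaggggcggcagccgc
Rab15 internal start: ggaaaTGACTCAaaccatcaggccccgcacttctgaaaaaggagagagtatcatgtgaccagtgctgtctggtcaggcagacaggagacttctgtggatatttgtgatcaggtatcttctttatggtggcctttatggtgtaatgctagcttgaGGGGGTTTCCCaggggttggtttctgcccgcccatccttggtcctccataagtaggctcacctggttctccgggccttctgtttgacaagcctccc

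Both strands of the 250 bases before each start were searched for AP-1 (TGANTCA), CRE (TGACGTCA), the E-box CACGTG, NFAT (TGGAAA), PU.1 (GAGGAA) and the NF-kB consensus. The window before the internal start of Rab15 held an AP-1 match 245 bases before the start and 2 overlapping NF-kB matches, at 96 and 95 bases. An AP-1 match occurred in 6.75% and an NF-kB match in 7.25% of all 32851 windows of this length. Of the windows before the other 2 downstream starts, the one at 76819097 to 76819346 held no match and the one at 76813857 to 76814106 held 1 NFAT match. The window before the upstream start held none of the 6 motifs and was rich in CpG, with 27 CpG dinucleotides and 75.2% G + C. Over the 58 windows of the 46 GTPase genes that had one, AP-1 matches occurred in 3.4%, NF-kB in 5.2%, E-box in 8.6% against 6.02% of all windows, and NFAT in 13.8% against 18.58%. CRE matches were in 3.4% against 1.55%, and PU.1 in 13.8% against 23.25%. A match describes letters only, and the table does not show which start was used.

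Rab15 stood at 0.0618, 0.0928 and 0.0590 RPKM in OCP replicates 1, 2 and 3 and at 7.47, 6.66 and 6.80 RPKM in OC. These values rest on 12, 17 and 10 reads in OCP and on 1206, 1020 and 1196 reads in OC. Every OC library was far above every OCP library. The ratio of means was 98.0-fold, and the log2 fold change of RPKM + 1 was 2.89 (SE 0.07, adjusted p = 3.09e-08, limma). The added 1 compresses a ratio from so low a level: a pseudocount of 0.1 gave 5.37 on the log2 scale, one of 0.01 gave 6.45, and the read-based voom model gave 6.63. Rab15 passed the filter of 1 RPKM only through the OC group, so it had to differ to be tested. Its exons overlap no other annotated gene and share no 50-base stretch with another transcript. Rab15 lies within the span of Fntb on the opposite strand, for which OCP held 5.65 ± 0.561 RPKM and OC 3.98 ± 0.482 RPKM (SD, n = 3).

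**Figure D1:**
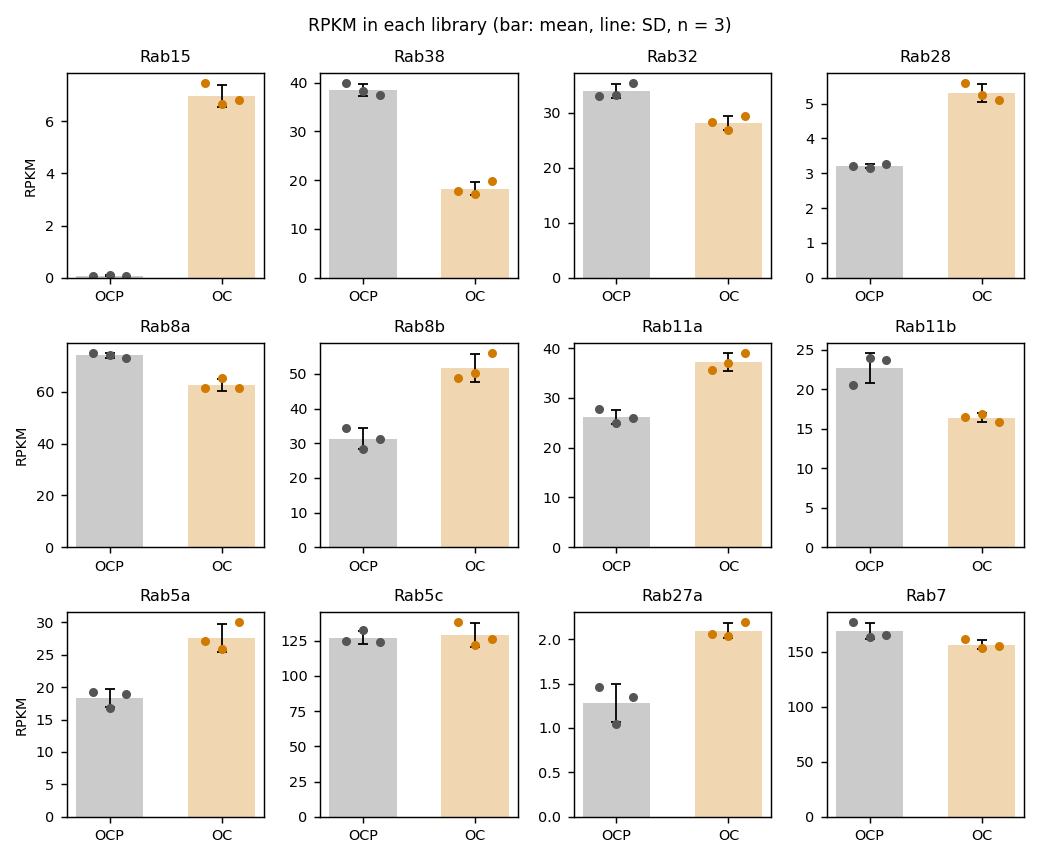
RPKM of 12 Rab GTPases in each library of OCP and OC (points), with the mean (bar) and SD (line, n = 3), each panel with its own axis from 0. Rab15 is near 0 in OCP and about 7 RPKM in OC, Rab38 is lower in OC, and Rab8b, Rab11a, Rab5a, Rab28 and Rab27a are higher in all OC libraries, while Rab8a and Rab11b are lower.

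Across the family, rises and falls were equal in number. Of 57 Rab GTPases 42 passed the filter of 1 RPKM in at least 3 libraries, and among those the OC level was raised for 10 and reduced for 10 (limma, Benjamini-Hochberg adjusted p under 0.05 over all 12301 tested genes). The called share of 47.6% was near that of all tested genes, 55.6% (23.5% higher and 32.1% lower). The groups of 3 did not overlap for 24 of the 42, or 57.1%, against 62.7% of all tested genes. The median log2 fold change was 0.025 for the Rabs tested and -0.046 over all genes tested, and the median size without sign was 0.211 against 0.235. A called change of at least 0.5 in log2 was found for 5 members (Rab15, Rab38, Rab8b, Rab28 and Rab5a), or 11.9%, against 18.0% of all tested genes. Of these, 2 (Rab15 and Rab38) reached 1 in log2, a size found in 4.16% of all tested genes. The summed level of the family was 1146 to 1178 RPKM in OCP and 1130 to 1167 RPKM in OC, ranges that overlap. The family total therefore differed by less than the spread between libraries while single members moved both ways.

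**Figure D2:**
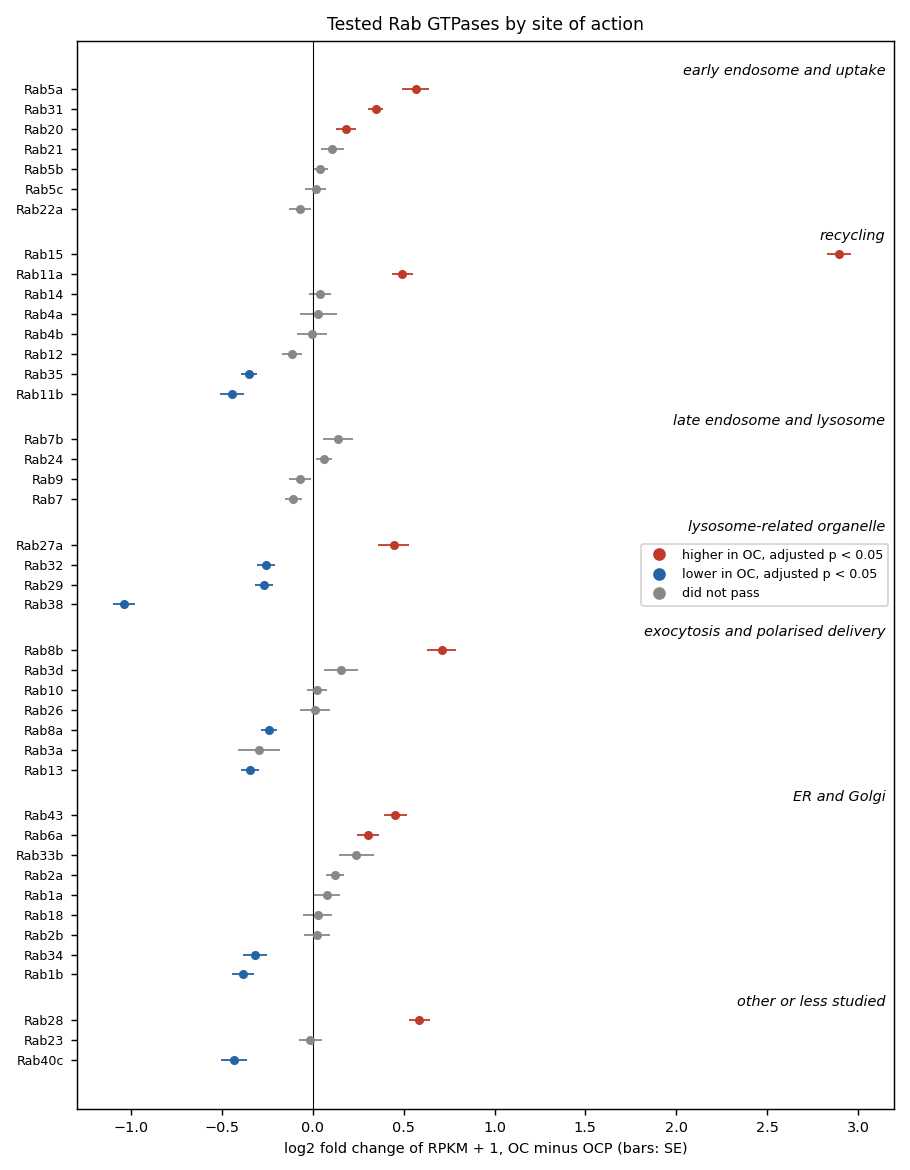
Log2 fold change of RPKM + 1 (OC minus OCP, x axis, bars are SE) of the 42 tested Rab GTPases, grouped by the compartment each is best known for. Rab15 lies at 2.89 and Rab38 at -1.04. The other points lie between -0.45 and 0.71. None of the 4 late endosomal Rabs passed the test, where 55.6% of all tested genes did, and with 4 genes that count says little.

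Rabs of lysosome-related organelles, the specialised secretory compartments to which the osteoclast's resorptive vesicles have been compared, were the one group in which every tested member was called: 3 fell and 1 rose, against 32.1% lower and 23.5% higher of all tested genes. With 4 genes this count says little by itself. Rab38, on chromosome 7 (88430273 to 88491572), directs cargo to such organelles with its close relative Rab32. Rab38 stood at 40.0, 38.3 and 37.4 RPKM in OCP and at 17.8, 17.1 and 19.8 RPKM in OC, so all OC libraries were at about the same lower level. The means were 2.11-fold higher in OCP (log2 fold change -1.04, SE 0.06, adjusted p = 5.5e-06). Rab32 fell less, from 33.0, 33.2 and 35.4 RPKM to 28.3, 26.9 and 29.4 RPKM (log2 fold change -0.26, SE 0.05, adjusted p = 0.00358). The groups did not overlap in either gene. The ratio of Rab38 to Rab32 was 1.06 to 1.21 in OCP and 0.631 to 0.672 in OC, so Rab38 was the more abundant of the pair in each OCP library and the less abundant in each OC library. Rab29, a relative of both that acts with the kinase LRRK2, fell from 16.5 ± 0.614 to 13.5 ± 0.444 RPKM.

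Rab27a, which docks lysosome-related organelles at the plasma membrane for secretion, rose against this group. Its level was low, at 1.46, 1.04 and 1.35 RPKM in OCP and 2.06, 2.03 and 2.19 RPKM in OC. The groups were apart (log2 fold change 0.44, SE 0.08, adjusted p = 0.00253, and 0.76 in the voom model). Its paralog Rab27b was below the filter, with 14, 8 and 6 reads in OCP and 4, 2 and 2 reads in OC. Rab44, an unusually large Rab of blood cells, was also below the filter, at 0.202, 0.147 and 0.146 RPKM in OCP and 0.167, 0.147 and 0.166 RPKM in OC, and the groups overlapped. Summed over the 6 Rabs of this group, OCP held 90.4 ± 1.65 RPKM and OC 62.2 ± 2.52 RPKM, a sum set mostly by Rab38 and Rab32. The osteoclast markers given above were lower in the same libraries.

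Among Rabs that serve the conventional degradative route, 0 of the 4 Rabs of the late endosome and lysosome passed the limma test, and 0 had an unadjusted p under 0.05. Of all tested genes 55.6% were called, and with 4 genes this count says little by itself. Rab7, which drives fusion with lysosomes and is needed for the ruffled border, was the most abundant Rab of all. It stood at 176.8, 163.6 and 165.2 RPKM in OCP and at 161.2, 152.9 and 154.9 RPKM in OC. All OC values were below all OCP values, but the difference was small (log2 fold change -0.11, 95% interval -0.216 to 0.001, adjusted p = 0.0854). Of its transcript's 50-base stretches 12.67% also occur in other transcripts, chiefly a Rab7 pseudogene, and how reads with several matches were counted was not given. Rab9, which returns receptors from late endosomes to the Golgi, was at 19.7 ± 0.857 and 18.7 ± 1.16 RPKM. Rab7b was at 9.42 ± 0.684 and 10.5 ± 1.01 RPKM (adjusted p = 0.178, limma), and it passed with voom (0.0283) and without OC replicate 2 (0.0459). Rab24, linked to autophagy, was at 23.8 ± 0.29 and 24.9 ± 0.895 RPKM, but 43.43% of its exon bases overlap Prelid1 on the other strand, so its reads cannot be assigned with certainty.

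Among 7 tested Rabs of the early endosome and uptake 3 rose and 0 fell by limma, and neither at an unadjusted p under 0.05 nor with voom was any lower. Of all tested genes 23.5% were higher and 32.1% lower, and with 7 genes these counts say little by themselves. The called share was below the 55.6% of all tested genes. Rab5a, which recruits the fusion machinery of early endosomes, went from 19.2, 16.8 and 19.0 RPKM to 27.1, 25.9 and 30.0 RPKM (log2 fold change 0.57, SE 0.07, adjusted p = 0.000359), with the groups apart. Its paralogs did not pass. Rab5c, the most abundant of the trio, was at 124.9, 132.5 and 124.0 RPKM in OCP and 138.2, 121.9 and 126.1 RPKM in OC (log2 fold change 0.02, 95% interval -0.115 to 0.148). Rab5b was at 24.9 ± 0.0732 and 25.7 ± 0.615 RPKM, with its OC values all slightly above its OCP values (adjusted p = 0.435). The ratio of Rab5a to Rab5c accordingly went from 0.145 to 0.215 on average.

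Rab31, which carries cargo from the Golgi to endosomes, had 66.2, 65.4 and 64.8 RPKM in OCP and 85.2, 83.2 and 82.1 RPKM in OC (log2 fold change 0.35, SE 0.04, adjusted p = 0.000188). Its replicates were tight and the groups far apart. Rab20, a Rab of maturing phagosomes, rose slightly, from 17.6 ± 0.637 to 20.1 ± 1.11 RPKM (adjusted p = 0.0228). This was the least stable call of the family: it was lost with no filter (adjusted p = 0.0529) and without OCP replicate 1 or 2 or OC replicate 2 or 3 (adjusted p from 0.0555 to 0.0791). A noncoding gene on the other strand overlaps 25.57% of the exon bases of Rab20. The summed level of the 8 Rabs of this group was 283.9 to 290.6 RPKM in OCP and 312.2 to 331.6 RPKM in OC, 11.6% higher on average. Rab31 and Rab5a made up most of this difference.

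In the Rab8 pair and the Rab11 pair one paralog rose and the other fell. Rab8b, which like Rab8a sends vesicles to the plasma membrane, rose from 34.4, 28.2 and 31.3 RPKM to 48.7, 50.3 and 56.2 RPKM (log2 fold change 0.71, SE 0.08, adjusted p = 0.000197). Rab8a fell from 75.2, 74.2 and 73.3 RPKM to 61.5, 65.4 and 61.3 RPKM (log2 fold change -0.24, SE 0.04, adjusted p = 0.00213). Both genes separated the groups. The Rab8a to Rab8b ratio was 2.18 to 2.63 in OCP and 1.09 to 1.30 in OC, while their sum went from 102.5 to 109.6 RPKM in OCP to 110.2 to 117.5 RPKM in OC, a smaller shift that was not tested.

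The Rab11 pair governs traffic through the recycling endosome. Rab11a rose from 26.2 ± 1.43 to 37.3 ± 1.78 RPKM (log2 fold change 0.49, adjusted p = 0.000206) and Rab11b fell from 22.8 ± 1.91 to 16.4 ± 0.53 RPKM (-0.445, adjusted p = 0.000737). Rab11a stood at 1.04 to 1.35 times Rab11b in OCP and at 2.15 to 2.47 times in OC. Of the 50-base stretches of Rab11b 13.63% also occur in other transcripts, chiefly a Rab11b pseudogene that the rule leaves out.

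Paralog ratios were examined for 11 pairs with both genes tested. With 3 libraries against 3 the exact two-sided permutation test cannot go below p = 0.1, and 8 of the 11 pairs reached that value (0.138 after Benjamini-Hochberg adjustment). Beside the pairs of Rab38, Rab5a, Rab8 and Rab11 these were Rab7 to Rab7b, Rab3a to Rab3d, Rab1a to Rab1b and Rab22a to Rab31. An exact p of 0.1 means only that the ratios of the 2 groups did not overlap. Levels of single genes did not overlap for 62.7% of all tested genes, and no share over other gene pairs was computed. For Rab5b to Rab5c (exact p = 0.9), Rab4a to Rab4b (exact p = 0.8) and Rab2a to Rab2b (exact p = 0.2) the ratios of both groups overlapped. Reads of Rab4b and Rab2b cannot be assigned with certainty. Of the exon bases of Rab4b 64.97% overlap Gm21983 and Mir3101 on the same strand, and of those of Rab2b 63.99% overlap Tox4 and Gm43766 on the other strand.

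Rab35, a Rab of fast recycling, fell from 23.4 ± 0.473 to 18.2 ± 0.467 RPKM, and Rab13, known from cell junctions, from 21.5 ± 0.493 to 16.7 ± 0.758 RPKM. Rab14, Rab12, Rab4a and Rab4b did not pass, nor did Rab10, which was abundant at 61.3 ± 2.95 and 62.3 ± 3.26 RPKM. Rab3d, a Rab of secretory vesicles that osteoclasts use, had 5.12, 6.25 and 4.76 RPKM in OCP and 5.99, 6.59 and 5.66 RPKM in OC. Its groups overlapped and it did not pass (log2 fold change 0.16, 95% interval -0.064 to 0.374, adjusted p = 0.201), although it did without OCP replicate 2 (adjusted p = 0.0288). Rab3a, the Rab of synaptic vesicles, stood at 1.60 ± 0.187 and 1.13 ± 0.326 RPKM and did not pass (adjusted p = 0.0579). It passed without OC replicate 2 (adjusted p = 0.00999), after quantile normalization (0.032) and with voom (0.0262).

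Of 9 tested Rabs of the endoplasmic reticulum and Golgi, 2 rose and 2 fell, a called share below the 55.6% of all tested genes. Rab1b, which carries cargo from the endoplasmic reticulum to the Golgi, ranked 3 by mean level among the Rabs, at 102.7, 118.3 and 112.0 RPKM in OCP and 88.4, 84.7 and 81.1 RPKM in OC. The groups were apart (log2 fold change -0.38, SE 0.06, adjusted p = 0.00108), whereas those of its paralog Rab1a overlapped, at 36.9 ± 3.72 and 38.8 ± 1.52 RPKM. Rab34, which positions lysosomes near the Golgi, fell from 6.64 ± 0.25 to 5.13 ± 0.429 RPKM. Rab6a, a Golgi Rab, rose from 21.7 ± 1.73 to 27.0 ± 0.535 RPKM and Rab43, which also acts at the Golgi, from 4.89 ± 0.29 to 7.06 ± 0.338 RPKM. The 2 rises are less certain as to gene: 18.99% of the exon bases of Rab6a overlap Mrpl48 on the other strand, and 75.35% of those of Rab43 overlap Gm45140 on the same strand. Rab2a and Rab33b did not pass, with adjusted p of 0.0737 and 0.0648, and both passed with TMM factors (0.0273 and 0.0362) and with voom (0.0241 and 0.00856). Of the exon bases of Rab33b 18.68% overlap Gm38160 on the other strand.

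Rab28, which is known from cilia and photoreceptors, was at 3.208, 3.148 and 3.257 RPKM in OCP and at 5.595, 5.244 and 5.092 RPKM in OC. The OCP libraries hardly differed from each other and all OC libraries lay above them (log2 fold change 0.59, SE 0.06, adjusted p = 8.36e-05). Rab40c, an atypical Rab that joins a ubiquitin ligase, fell from 8.52 ± 0.508 to 6.06 ± 0.523 RPKM. Rab23, a regulator of Hedgehog signalling, was at 1.07 ± 0.0333 and 1.06 ± 0.0545 RPKM and lies just above the filter, as does Rab4a at 1.01 ± 0.247 and 1.04 ± 0.12 RPKM.

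The 15 GTPases below the filter ranged from Rab19, at 0.544 ± 0.0952 and 0.589 ± 0.21 RPKM, down to Rab25, an epithelial Rab for which 1 read was found in 1 OCP library and none in the others. In the fit with no filter none of the 15 passed, and 1 of them, Rab39, had an unadjusted p under 0.05. Rab39, a Rab of macrophages, had 40, 30 and 32 reads in OCP and 42, 42 and 52 in OC. Its RPKM values did not overlap (0.289 ± 0.0329 and 0.430 ± 0.0279), but the adjusted p was 0.0958 with no filter and 0.0523 with voom on genes of at least 10 reads on average. Promoter windows were found for 36 tested GTPases, with a median of 20.5 CpG dinucleotides in 250 bases, and for 10 GTPases below the filter, with a median of 7.5. The ranges, 5 to 42 and 3 to 40, overlap.

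**Figure D3:**
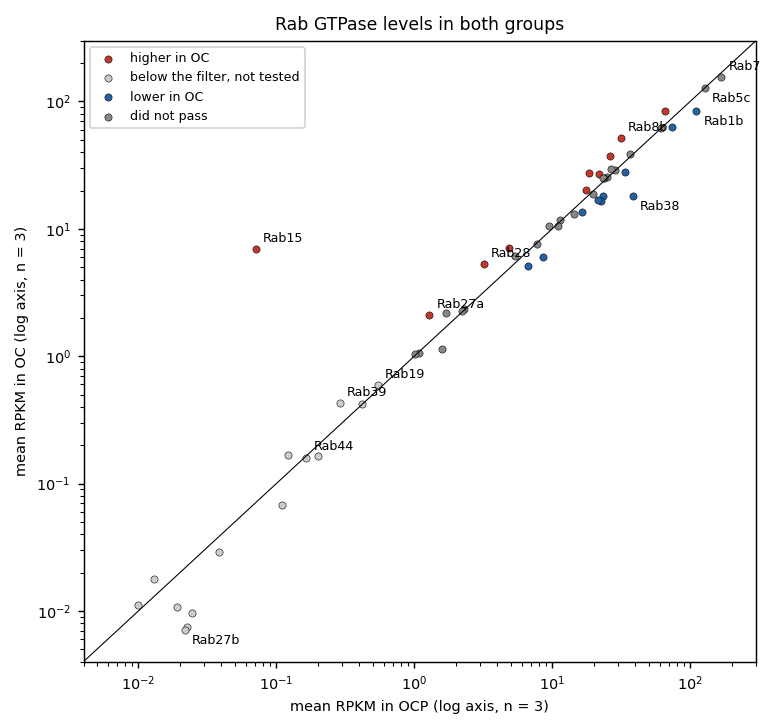
Mean RPKM of Rab GTPases in OCP (x) and OC (y), n = 3 libraries each, on log axes with the line of equality. Rab25, with a mean of 0 in OC, is left out. Most members lie near the line from under 0.1 to over 100 RPKM, while Rab15 lies far above it and Rab38 below it. The untested Rab27b, Rab36 and Rab17, which rest on few reads, lie further below the line than Rab38.

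The proteins that handle Rabs were described from lists of their genes. Rabif, which binds nucleotide-free Rabs, was placed in the list of prenylation and membrane extraction. Its level fell from 4.56 ± 0.138 to 3.92 ± 0.171 RPKM (limma, adjusted p = 0.0301). The call on Rabif was lost with TMM factors (adjusted p = 0.0589), with voom (0.103) and without OCP replicate 1 or 3 or any 1 of the OC replicates (0.0526 to 0.106). Gdi2, a GDI that removes Rabs from membranes, was abundant and did not pass, at 95.4 ± 8.67 and 97.8 ± 4.9 RPKM (adjusted p = 0.676).

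Exchange factors went both ways, with 11 of 31 tested genes higher and 8 lower (median log2 fold change 0.015), where all tested genes gave 23.5% higher and 32.1% lower. With a mean of at least 5 RPKM, where 16 were tested, 3 were higher and 5 lower. Of all 7228 genes tested in that setting 1645 were higher and 2904 lower. Rab3il1, the exchange factor whose symbol falls under the naming rule, had 9.27, 10.7 and 9.88 RPKM in OCP and 23.9, 24.1 and 22.4 RPKM in OC, a 2.36-fold ratio of means with the groups far apart (log2 fold change 1.16, SE 0.06, adjusted p = 3.48e-06). It is known to act on Rab3a and Rab8, of which Rab8b rose, Rab8a fell and Rab3a did not pass. Dennd3, an exchange factor of Rab12, rose from 0.291 ± 0.0421 to 1.37 ± 0.193 RPKM, and passed the filter only through OC. St5, an exchange factor of Rab13, fell from 23.5 ± 1.92 to 12.0 ± 0.671 RPKM, and Rin3, which acts on Rab5 and Rab31, from 14.1 ± 1.37 to 8.47 ± 0.169 RPKM. Rab13 fell, while Rab12 did not pass and Rab31 rose.

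Among 34 tested GAPs 7 rose and 14 fell (median log2 fold change -0.058), and falls also outnumbered rises over all tested genes (32.1% and 23.5%). Grtp1 rose from 5.65 ± 0.372 to 9.93 ± 0.582 RPKM and Tbc1d8 from 1.32 ± 0.0813 to 2.02 ± 0.16 RPKM. Sgsm3, a GAP of Rab5, fell from 28.7 ± 1.93 to 16.1 ± 0.984 RPKM, and Tbc1d2b from 27.6 ± 1.06 to 18.9 ± 0.568 RPKM. Without OC replicate 1 the number of GAPs called higher was 4, where 2579 of all 12301 tested genes were. With a mean of at least 5 RPKM, where 21 GAPs were tested, 5 were higher and 8 lower. That setting gave 1645 higher and 2904 lower of all 7228 tested genes.

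Effectors, the proteins that active Rabs recruit, were lower in 15 of 34 tested cases and higher in 5 (median log2 fold change -0.08), beside 32.1% lower and 23.5% higher of all tested genes. Rufy4, which binds Rab7 and gathers lysosomes, had 151.4, 153.1 and 157.9 RPKM in OCP and 74.3, 73.5 and 74.4 RPKM in OC (log2 fold change -1.05, SE 0.04, adjusted p = 4.88e-07). Plekhm1, the Rab7 effector whose loss causes osteopetrosis, fell from 52.6, 58.1 and 55.5 RPKM to 32.9, 30.2 and 29.9 RPKM (-0.82, SE 0.06, adjusted p = 1.5e-05). Rilp, also a Rab7 effector, fell (log2 fold change -0.75, adjusted p = 7.86e-05). Not all Rab7 effectors on the list fell: Osbpl1a, which also binds Rab7, rose (log2 fold change 0.30, adjusted p = 0.00395), and Fyco1 and Rubcn did not pass, at -0.01 and -0.02 on the log2 scale. These 4 genes, Rilp included, were singled out with their values known. Rab7 itself did not pass. Lrrk2, a kinase listed here that phosphorylates Rab8 and Rab10 and binds Rab29 and Rab32, rose from 1.59, 1.27 and 1.66 RPKM to 5.02, 4.95 and 5.72 RPKM (log2 fold change 1.31, SE 0.08, adjusted p = 8.85e-06). Rab11fip5, an effector of the Rab11 pair, rose from 9.29 ± 0.83 to 16.55 ± 0.448 RPKM. With voom 8 effectors were higher, where 3448 of all 12301 tested genes were. With a mean of at least 5 RPKM, where 24 effectors were tested, 2 were higher and 14 lower. All 7228 genes tested in that setting gave 1645 higher and 2904 lower.

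The HOPS and CORVET complexes tether membranes for Rab7 and Rab5. Of their 10 tested genes and partners 3 fell and 0 rose by limma, a share of falls near the 32.1% of all tested genes, and the 2 with the largest fall were Vps18, from 19.8 ± 1.58 to 13.6 ± 0.507 RPKM, and Vipas39, from 38.3 ± 0.821 to 27.5 ± 1.04 RPKM. None was higher at an unadjusted p under 0.05, but 2 were with voom and 1 without OC replicate 3. The same osteoclast markers noted above were lower in the libraries in which these partners fell, and their part in it was not tested.

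**Figure D4:**
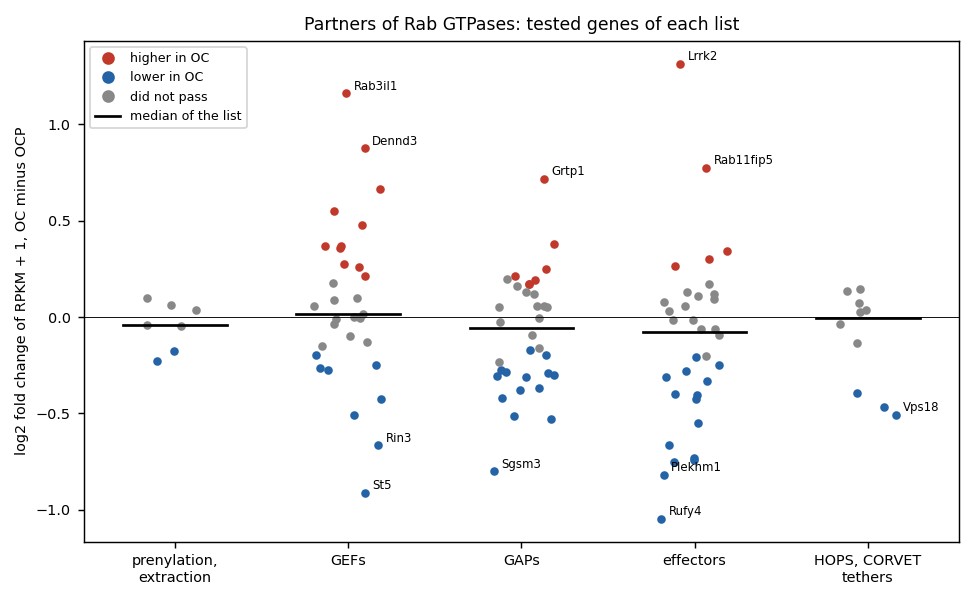
Log2 fold change of RPKM + 1 (OC minus OCP, y axis) of the tested genes in 5 lists of Rab partners, 1 point a gene, with the median of each list as a line. Lrrk2 and Rab3il1 lie highest and Rufy4 lowest, and all 5 medians lie within 0.1 of 0.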

How the data were processed

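The authors deposited 1 table of RPKM values with gene lengths, for 6 RNA-seq libraries. Per the labels' protocols, 2 ug of TRIzol-extracted total RNA went into a stranded mRNA kit. Per the submitters' processing notes, Trimmomatic 0.36, STAR 2.5.3a and featureCounts were used. The notes name GRCh38, but the table's coordinates are of mouse: all 58 members were in GENCODE M21 (GRCm38), 47 with the same start and end. The strand setting, reads with several matches and duplicate removal are not given in the sources used here.

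RPKM times length gave whole reads within 0.01 for 100% of values. Some low genes had even read numbers in all 6 libraries, such as Rab37 (2, 2, 4, 0, 6 and 4) and Rab39 (40, 30, 32, 42, 42 and 52). Others did not, such as Rab15 with 17 reads in OCP replicate 2. Whether both mates of a read pair were counted was not tested, so independent fragments may be fewer than the reads given. Genes reaching 1 RPKM in 3 or more libraries were tested on log2(RPKM + 1) with limma 3.58.1 (R 4.3.3; moderated variance, trend and robust options), two-sided, with Benjamini-Hochberg adjustment over 12301 genes and a threshold of 0.05. Limma steps were tested on simulated data. Plots were made with Python 3.11.15 and matplotlib 3.10.9. No per-sample column was left unmapped.

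Full values were printed for members called with a log2 fold change of at least 0.5, the 5 most abundant, and Rab7, Rab27a, Rab38, Rab32, Rab3d and Rab44. Of each partner list the 2 largest called changes in each direction were eligible. Members and lists were chosen with earlier results of these data known. Floors and counts cover counting error only. Alternatives were other pseudocounts, filters and scalings, plain limma, a replicate block, voom on recovered reads and leaving out each library. The result of 1 gene of the prenylation and extraction list, and that list's counts, are not reported here.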

Additional observations from a re-analysis of the deposited data

How the results depend on the processing

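Of 20 called Rab GTPases 19 kept their call and direction in each of the 16 other settings in which they were tested, and none was called in the opposite direction. The exception was Rab20, given above. The number of Rabs higher and lower was 10 and 10, against 12 and 10 with TMM factors, 13 and 11 with voom and 7 and 10 with a mean of at least 5 RPKM, where 33 were tested. Leaving out a library gave 9 to 11 higher and 10 to 11 lower. Partner genes called numbered 23 higher and 42 lower, where all tested genes gave 23.5% higher and 32.1% lower. With a mean of at least 5 RPKM, where fewer were tested, 10 partner genes were higher and 31 lower. Of all 7228 genes tested in that setting 1645 were higher and 2904 lower. With voom on genes of at least 10 reads on average, where more were tested, the partner genes numbered 39 and 47. That setting was chosen after seeing the data, and 4187 of its 15802 genes were higher and 4062 lower. No scaling moved the median of all genes by over 0.1. With the replicate number as a block 11 Rabs were higher and 10 lower. Same-numbered libraries did not deviate together (correlations -0.115, 0.143 and 0.014), so the numbers were not taken as pairs. Paralog ratios kept their direction with a pseudocount of 0.1. Low read numbers limit what can be said of the 15 Rabs below the filter.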
